A study of Mus musculus with 6 samples.

Results

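The dual-specificity phosphatases (Dusp), the Sprouty proteins (Spry) and the Sprouty-related EVH1 domain proteins (Spred) were examined in RNA-seq of mouse regulatory T (Treg) cells cultured without or with sorafenib (Sora). Every row of the count table whose symbol was Dusp, Spry or Spred followed by a number was taken, which gave 29 of 22939 genes, 23 of them Dusp, 3 Spry and 3 Spred. Of these, 25 had enough reads to be tested among the 13463 genes that passed the same filter, and the other 4, Dusp13, Dusp18, Dusp21 and Dusp27, are given by their counts only. Dusp26, Dusp29 and Spry3 were not analysed here.

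Naive CD4 T cells from the spleen and lymph nodes of Foxp3-GFP reporter mice had been turned into Treg cells in vitro with antibodies to CD3 and CD28, TGF-β1 and antibodies to IFN-γ and IL4, and GFP+ cells had been sorted before RNA extraction. The reporter, the antibodies and TGF-β1 were shared by both groups, and Sora, a multikinase inhibitor used in hepatocellular carcinoma whose targets include RAF kinases and the VEGF and PDGF receptors, was the only stated difference. There were 3 libraries of control-Treg (ctrl-Treg) cells, called controls here, and 3 of Sora-Treg cells. The cells are induced Treg cells of a culture dish and not Treg cells of a tissue or tumor, and the dose and time of Sora for these libraries are not given in the sources used here. Nothing in the labels says that the libraries came from separate cultures or animals, so p-values measure only the spread between these samples, which may be technical.

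MAP kinase cascades carry the signal from the T cell receptor through RAS, RAF and MEK to ERK, and through parallel kinases to JNK and p38. Many of the genes that such signals switch on encode brakes on the same signals. Classical Dusp phosphatases remove both the tyrosine and the threonine phosphate that activate a MAP kinase, in the nucleus or the cytoplasm. Sprouty and Spred proteins act upstream at the membrane, and Spred proteins bring neurofibromin, a RAS GTPase-activating protein, to RAS.

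Total counts per library were between 30727686 and 37717324, and a floor of 3 counts was worth between 0.0795 and 0.0976 CPM (counts of a gene relative to the total of its library, with the totals scaled between libraries for all gene levels given here). This floor covers counting error only. The biological coefficient of variation was 4.29%. Foxp3, which drives the reporter, was read at 252 to 269 CPM in the controls and 268 to 278 CPM with Sora. Of 7 T cell and Treg markers, 6 were called higher with Sora, where 29.7% of all tested genes were. The 7 summed to 3749 to 3794 CPM in the controls and 6635 to 6764 CPM with Sora. Il2ra (means of 1934 and 3795 CPM) and Ctla4 (383 and 1108 CPM) rose most in CPM. Cd3e and Cd3g rose too, whereas Cd4 (679 and 709 CPM) and Ikzf2 (147 and 149 CPM) changed little. Markers of CD8 T, B and NK cells were low, whereas the summed myeloid markers were above the level of many members in ctrl-Treg libraries 1 and 2. The 2 CD8 T cell markers summed to 12.6 to 15.1 CPM over all libraries, 4 B cell markers to at most 2.39 CPM and 3 NK cell markers to at most 4.99 CPM, almost all of it Eomes. Of the 7 myeloid markers, 5 were called lower with Sora, where 29.9% of all tested genes were. The 7 summed to 93.5, 93.0 and 24.9 CPM in ctrl-Treg libraries 1 to 3 and to 22.3, 42.9 and 20.8 CPM in Sora-Treg libraries 1 to 3. None of the 7 myeloid markers was at 0 in all libraries. Their part in the results was not tested, and members whose value or call moved most without ctrl-Treg libraries 1 and 2 are given with those values. In bulk RNA, fewer cells of a type and less RNA per cell cannot be told apart.

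The members did not move as one. Of the 25 tested members, 5 were higher with Sora (20%, where 29.7% of all tested genes were called higher) and 11 were lower (44%, where 29.9% of all tested genes were), at an adjusted p under 0.05 in the quasi-likelihood test of edgeR with Benjamini-Hochberg adjustment over all tested genes. The other 9 were not called. Beyond a 2-fold change, 2 members were higher, where 6.3% of all tested genes were, and 4 were lower, where 4.97% were. The groups did not overlap for 5 members that were higher, where this held for 31.8% of all tested genes, and for 13 that were lower, where it held for 32%. They overlapped for 7. The median log2 fold change of the tested members was -0.22, against a median of -0.0035 over all tested genes, with quartiles of -0.28 and 0.27, and members ranged from -1.76 for Dusp15 to 1.84 for Spred3.

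**Figure D1:**
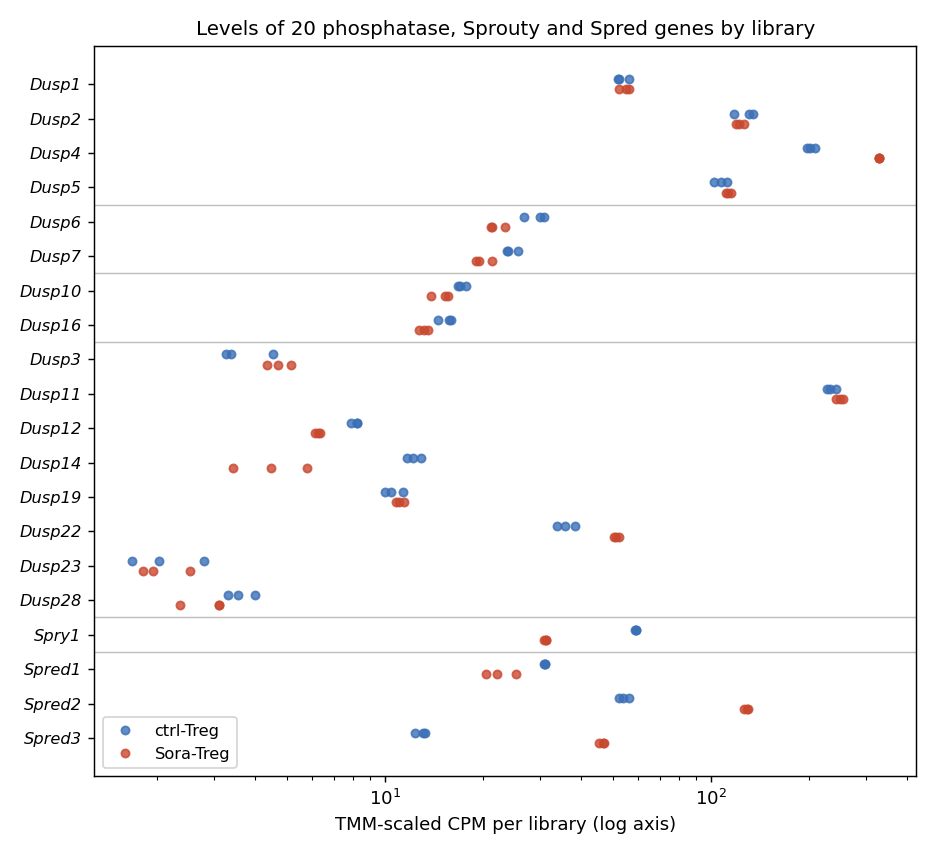
Level of the members with a mean FPKM of at least 1 in either group, in scaled CPM on a log axis, by functional class, with 1 point per library for ctrl-Treg (3 libraries) and Sora-Treg (3 libraries) cells. The Spred2, Spred3, Dusp4 and Dusp22 points of Sora-Treg cells lie above those of ctrl-Treg cells, and the Spry1, Spred1, Dusp6 and Dusp14 points lie below them.

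The 3 Spred genes, which share a domain structure and the recruitment of neurofibromin, went in opposite directions. Spred2 and Spred3 rose and Spred1 fell, and all 3 passed the test. Over all tested genes, 29.7% were called higher and 29.9% lower. Spred3, the member in which the KIT-binding domain is not functional, was measured at 13.1, 12.4 and 13.3 CPM in the controls and at 45.5, 47.0 and 46.6 CPM with Sora. Each Sora-Treg library was thus far above each ctrl-Treg library, and the fold was 3.59, the highest of all members tested. The fitted log2 fold change was 1.84 ± 0.06 SE over 3 libraries per group (adjusted p = 2.73e-17, edgeR).

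Spred2, a broadly expressed inhibitor of the RAS to ERK pathway, was measured at 52.5, 56.0 and 54.0 CPM in the controls and at 126, 129 and 130 CPM with Sora. The groups were well apart. Its log2 fold change was 1.25 ± 0.04 SE (adjusted p = 7.64e-18, edgeR), a 2.38-fold higher level. Spred1, whose loss in humans causes a RAS pathway syndrome, was measured at 30.8, 31.0 and 31.0 CPM in the controls and at 20.5, 25.3 and 22.1 CPM with Sora. It was lower in each Sora-Treg library, with more spread there than in the controls, and its log2 fold change was -0.45 ± 0.07 SE (adjusted p = 7.2e-06, edgeR).

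These shifts changed the balance within the family. Counts of Spred3 were 0.399 to 0.428 times those of Spred1 in the controls and 1.86 to 2.22 times those of Spred1 with Sora. For Spred2 over Spred1, the ratio of counts was 1.71 to 1.80 and 5.13 to 6.17. A ratio of counts within a library does not depend on library scaling, although it is not a ratio of molecules, since the transcripts differ in length. These ratios were chosen after the values were seen and were not tested. The summed level of the 3 Spred genes was 98.0 ± 1.54 CPM in the controls and 198 ± 4.72 CPM with Sora (SD, n = 3), of which Spred2 held the most.

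The 3 Sprouty genes are feedback inhibitors that respond to receptor and T cell receptor signals. All 3 were read lower in every Sora-Treg library than in any ctrl-Treg library, apart from a tie in raw counts for Spry2. In scaled CPM, 32% of all tested genes were lower without overlap. Spry1, the only one with a substantial level, was measured at 59.1, 58.5 and 59.2 CPM in the controls and at 31.3, 31.2 and 30.7 CPM with Sora. The spread within each group was under 1 CPM. The fitted log2 fold change was -0.92 ± 0.05 SE (adjusted p = 6.43e-14, edgeR), which is 1.90-fold lower.

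Spry4 had 27, 30 and 46 counts in the controls and 10, 6 and 14 counts with Sora, with a log2 fold change of -1.66 ± 0.44 SE (adjusted p = 0.00229, edgeR). It passed the test at a level of under 2 CPM. Spry2 had 43, 32 and 18 counts and 14, 17 and 18 counts, with a log2 fold change of -0.76 ± 0.38 SE (adjusted p = 0.0935, edgeR). It was not called, and ctrl-Treg library 3, in which myeloid markers were also lowest among the controls, was close to the Sora-Treg libraries. Without ctrl-Treg libraries 1 and 2, the log2 fold change of Spry2 was -0.17 (edgeR adjusted p = 0.869). The summed Sprouty level was 60.8 ± 0.505 CPM in the controls and 31.9 ± 0.255 CPM with Sora (SD, n = 3).

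**Figure D2:**
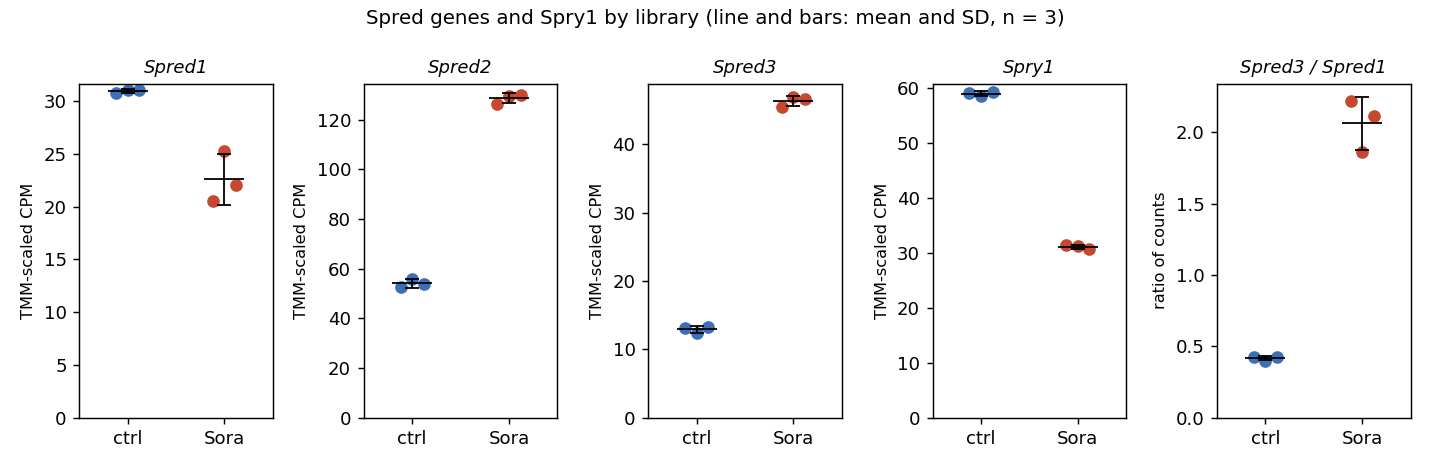
Scaled CPM, on an axis from 0, of Spred1, Spred2, Spred3 and Spry1 in each library, with group means and error bars of 1 SD (n = 3), and, in the last panel, the ratio of Spred3 to Spred1 counts in each library. Spred2 and Spred3 stand at 129 and 46.4 CPM on average with Sora against 54.2 and 12.9 CPM in the controls, whereas Spred1 and Spry1 stand at 22.6 and 31.1 CPM against 31.0 and 58.9 CPM.

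To let the start regions of these genes be compared, the 250 bases before the annotated RefSeq start (GRCm38.p6) are printed 5′ to 3′ for Spred1, which fell, Spred2 and Spred3, which rose, and Spry1, which fell, with none of the searched motifs found in them and therefore no capitals.
Spred1, chr2:117120821-117121070, plus strand: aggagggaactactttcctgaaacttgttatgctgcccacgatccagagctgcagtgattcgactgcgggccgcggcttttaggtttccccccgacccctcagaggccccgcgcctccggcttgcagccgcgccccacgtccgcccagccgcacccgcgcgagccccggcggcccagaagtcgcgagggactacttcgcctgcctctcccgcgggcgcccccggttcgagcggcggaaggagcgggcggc
Spred2, chr11:19924192-19924441, plus strand: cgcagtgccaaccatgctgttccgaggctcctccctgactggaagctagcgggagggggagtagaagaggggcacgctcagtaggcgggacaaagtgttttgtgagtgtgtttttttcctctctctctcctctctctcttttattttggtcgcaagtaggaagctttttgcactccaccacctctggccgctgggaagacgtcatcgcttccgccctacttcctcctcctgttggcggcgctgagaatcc
Spred3, chr7:29168648-29168897, minus strand: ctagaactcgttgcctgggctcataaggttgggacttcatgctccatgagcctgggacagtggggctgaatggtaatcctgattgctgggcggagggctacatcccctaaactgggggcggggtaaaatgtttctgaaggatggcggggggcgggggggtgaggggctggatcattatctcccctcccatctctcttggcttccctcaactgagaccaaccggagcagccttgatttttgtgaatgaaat
Spry1, chr3:37639697-37639946, plus strand: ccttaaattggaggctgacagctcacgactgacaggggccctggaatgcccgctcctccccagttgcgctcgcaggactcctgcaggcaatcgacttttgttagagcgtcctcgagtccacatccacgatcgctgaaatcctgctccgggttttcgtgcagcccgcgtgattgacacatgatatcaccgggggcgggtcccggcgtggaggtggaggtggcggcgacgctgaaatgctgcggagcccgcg
The GC content was 70.8% in the Spred1 stretch, 56% in that of Spred2, 55.6% in that of Spred3 and 62.4% in that of Spry1. The number of CpG dinucleotides was 31 in Spred1, 12 in Spred2, 6 in Spred3 and 23 in Spry1. Over the 23 member genes with a RefSeq promoter entry, some with several starts, the median GC content was 59.4%, against 52.4% over all 32851 promoters in the table. The GENCODE M21 gene models (GRCm38) place Spred1 at chr2:117121374-117182279, Spred2 at chr11:19924375-20024026, Spred3 at chr7:29158829-29170411 and Spry1 at chr3:37639947-37644598. The printed stretch of Spry1 thus ends where its model starts, and that of Spred1 ends before its model. That of Spred2 runs past the start of its model, and that of Spred3 lies within its model. The GC and CpG values are therefore from unlike positions relative to these models.

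Spred3 overlaps Ggn, a gametogenesis gene on the opposite strand, which was read at 2.15 CPM in the controls and 5.95 CPM with Sora (log2 fold change 1.47). The strand setting of the counting is not given in the sources used here. Reads of the shared stretch could have gone to either gene, and Ggn was read well below Spred3 in both groups.

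Of the nuclear phosphatases that immediate early signals induce, Dusp1, Dusp2, Dusp4 and Dusp5, only Dusp4 passed the test. Dusp4 (chr8:34807297-34819894), which acts on ERK, JNK and p38 in the nucleus, was measured at 201, 209 and 198 CPM in the controls and at 328, 327 and 329 CPM with Sora. The Sora-Treg libraries were within 2 CPM of each other and above all ctrl-Treg libraries. Its log2 fold change was 0.69 ± 0.03 SE over 3 libraries per group (adjusted p = 2.16e-15, edgeR), which is 1.62-fold higher.

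The 3 others were not called. Dusp5, an ERK-specific nuclear phosphatase, was measured at 107, 112 and 103 CPM in the controls and at 113, 111 and 115 CPM with Sora, with overlapping groups and a log2 fold change of 0.08 ± 0.04 SE (adjusted p = 0.083, edgeR). Dusp2, a phosphatase of activated lymphocytes, was measured at 131, 135 and 118 CPM and at 119, 122 and 126 CPM, and its log2 fold change was -0.06 ± 0.04 SE (adjusted p = 0.223, edgeR). Dusp1, an immediate early gene whose product acts on p38 and JNK as well as ERK, was measured at 52.3, 52.1 and 56.3 CPM and at 56.1, 52.2 and 55.0 CPM. The fitted log2 fold change was 0.02 ± 0.05 SE (adjusted p = 0.684, edgeR).

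The small values of these 3 genes depended on the setting. Dusp2 was called lower without ctrl-Treg library 3 (log2 fold change -0.12, edgeR adjusted p = 0.0153), and Dusp5 was called higher without ctrl-Treg library 2 (0.11, adjusted p = 0.0269) or without Sora-Treg library 2 (0.09, adjusted p = 0.0464). With library totals in place of scaling factors, which moves the median of all genes by -0.12, Dusp1 and Dusp5 turned to -0.09 and -0.04. Dusp1 overlaps Ergic1 on the opposite strand, which was read at 196 CPM in the controls and 170 CPM with Sora.

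The balance among these phosphatases was read from counts within each library. Dusp4 had 1.54 to 1.68 times the counts of Dusp2 in the controls and 2.60 to 2.74 times with Sora. Relative to Dusp5, the ratio was 1.87 to 1.93 and 2.85 to 2.949. Relative to the cytoplasmic Dusp6, it was 6.43 to 7.52 and 14.1 to 15.5. These ratios were also chosen after the values were seen and were not tested. The summed level of the 4 nuclear genes was 491 ± 16.7 CPM in the controls and 618 ± 6.43 CPM with Sora (SD, n = 3), and that of all members was 1050 ± 16.3 and 1252 ± 14.0 CPM.

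The promoters of Dusp1, Dusp5 and Dusp8 are printed because, of the members matched, they held the cyclic AMP response element (CRE, TGACGTCA, read on both strands) or the CArG box to which serum response factor (SRF) binds, marked in capitals in the 250 bases before the RefSeq start (GRCm38.p6, 5′ to 3′).
Dusp1, chr17:26508473-26508722, minus strand: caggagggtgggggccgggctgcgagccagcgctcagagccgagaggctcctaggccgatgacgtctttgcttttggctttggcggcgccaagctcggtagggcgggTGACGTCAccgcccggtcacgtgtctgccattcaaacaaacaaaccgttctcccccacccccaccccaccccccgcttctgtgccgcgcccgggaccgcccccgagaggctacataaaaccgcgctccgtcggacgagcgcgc
Dusp5, chr19:53528895-53529144, plus strand: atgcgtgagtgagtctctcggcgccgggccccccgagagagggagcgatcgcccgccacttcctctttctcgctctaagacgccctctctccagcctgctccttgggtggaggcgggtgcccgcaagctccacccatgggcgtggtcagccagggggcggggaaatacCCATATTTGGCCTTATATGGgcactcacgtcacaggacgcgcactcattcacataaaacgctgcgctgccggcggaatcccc
Dusp8, chr7:142095285-142095534, minus strand: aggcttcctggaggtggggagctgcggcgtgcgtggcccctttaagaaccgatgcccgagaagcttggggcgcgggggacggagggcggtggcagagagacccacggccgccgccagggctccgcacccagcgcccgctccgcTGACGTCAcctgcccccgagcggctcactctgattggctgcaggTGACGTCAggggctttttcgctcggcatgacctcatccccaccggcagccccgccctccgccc
The CRE occurred in 1.55% of all promoters of this length in the table and in Dusp1 and Dusp8, which has it in 2 places. The SRF CArG box occurred in 1.47% of all promoters and in Dusp5, where 2 boxes lie side by side. The AP-1 motif TGANTCA occurred in 6.75% of all promoters and, of the members, in Dusp13. The ETS motif CCGGAAGT (2.88% of all promoters), the FOXO motif GTAAACA (3.17%) and the CRE variant TGACGTAA (0.447%) had 0 matches among the members. No match says only that these letters are not in this window, and none of the matches is evidence of binding. The entry of Dusp4 is not used here. The GENCODE M21 gene models (GRCm38) place Dusp1 at chr17:26505590-26562128, Dusp5 at chr19:53529109-53542431 and Dusp8 at chr7:142079490-142095843. The printed stretches of Dusp1 and Dusp8 thus lie within these models, and that of Dusp5 runs past the start of its model.

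Of the 3 cytoplasmic ERK-selective phosphatases, 2 were lower, where 29.9% of all tested genes were, and 1 was not called. Dusp6 (chr10:99263231-99267489), whose product holds ERK in the cytoplasm and dephosphorylates it, and whose transcript is widely used as a readout of ERK activity, was measured at 26.8, 29.98 and 30.7 CPM in the controls and at 21.2, 21.4 and 23.4 CPM with Sora. All Sora-Treg libraries were below all ctrl-Treg libraries. Its log2 fold change was -0.41 ± 0.07 SE (adjusted p = 2.75e-05, edgeR), which is 1.32-fold lower. RNA levels alone do not measure ERK activity. Dusp7, a close relative of Dusp6, was measured at 23.7, 23.9 and 25.6 CPM and at 21.4, 19.4 and 19.0 CPM, with a log2 fold change of -0.29 ± 0.07 SE (adjusted p = 0.00118, edgeR). Its groups did not overlap either.

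Dusp9, the third gene of this class, had few counts. It had 48, 35 and 10 counts in the controls and 17, 24 and 30 counts with Sora, and its log2 fold change was -0.22 ± 0.42 SE (adjusted p = 0.666, edgeR). Among the controls, libraries 1 and 2 were above library 3, as they were for the myeloid markers, and without libraries 1 and 2 the log2 fold change was 1.19 (edgeR adjusted p = 0.199). The class summed to 54.4 ± 2.50 CPM in the controls and 42.7 ± 0.920 CPM with Sora (SD, n = 3).

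The 3 phosphatases that prefer JNK and p38 were all called lower, where 29.9% of all tested genes were. The amounts were small for the 2 with a substantial level. Dusp16, a phosphatase with JNK preference that restrains T cell cytokine programs, was measured at 16.0, 15.7 and 14.6 CPM in the controls and at 13.6, 12.8 and 13.2 CPM with Sora. Dusp10, which acts on JNK and p38 in T cells and in innate cells, was measured at 16.8, 17.8 and 17.0 CPM and at 15.6, 13.9 and 15.3 CPM. The groups did not overlap for either gene, and the log2 fold changes were -0.23 ± 0.08 SE (adjusted p = 0.0174, edgeR) and -0.20 ± 0.08 SE (adjusted p = 0.0302, edgeR).

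Neither call held in all alternatives. Dusp16 lost it without ctrl-Treg library 1, ctrl-Treg library 2 or Sora-Treg library 2 (edgeR adjusted p = 0.0784, 0.0584 and 0.0516). Dusp10 lost it without the same libraries (edgeR adjusted p = 0.051, 0.109 and 0.13) and in DESeq2 (adjusted p = 0.0714). The direction stayed lower in each of these. Dusp8, a neuron-enriched member, had 65, 51 and 49 counts in the controls and 13, 35 and 17 counts with Sora, with a log2 fold change of -1.19 ± 0.35 SE (adjusted p = 0.00597, edgeR). It was lower in each Sora-Treg library at under 2 CPM throughout, and its fold was larger without Sora-Treg library 2 (log2 fold change -1.74).

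**Figure D3:**
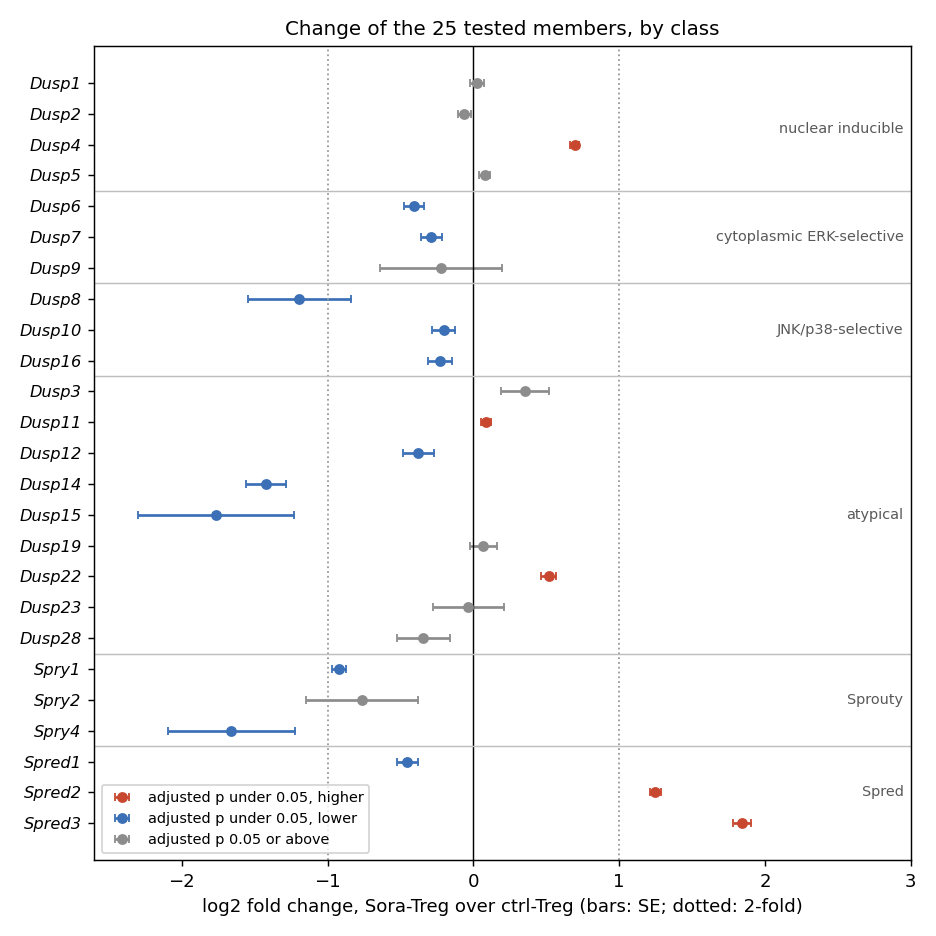
Log2 fold change of each of the 25 tested members, Sora-Treg over ctrl-Treg, with bars of 1 SE, grouped by class and with called members marked apart from those not called. Spred3 at 1.84 and Spred2 at 1.25 lie farthest to the right, Dusp15 at -1.76 and Spry4 at -1.66 farthest to the left, and Dusp1, Dusp5, Dusp11 and Dusp19, just above 0, turn below it when library totals are used.

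The atypical phosphatases, which lack the MAP kinase binding module of the classical members and act on varied substrates, were split. Of 13 such genes 9 were tested, 2 rose, 3 fell and 4 were not called, where 29.7% of all tested genes rose and 29.9% fell. Dusp14 (chr11:84048041-84069261), which dephosphorylates the TAB1 adaptor and restrains T cell receptor signaling, was measured at 12.9, 11.7 and 12.2 CPM in the controls and at 4.48, 3.42 and 5.76 CPM with Sora. Each Sora-Treg library was below each ctrl-Treg library by more than the spread of either group. The fitted log2 fold change was -1.42 ± 0.13 SE (adjusted p = 4.36e-09, edgeR), which is 2.68-fold lower.

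Dusp22 (chr13:30659999-30711231), which inactivates the kinase LCK and so restrains T cell receptor signaling as well, went the other way. It was measured at 33.7, 38.5 and 35.8 CPM in the controls and at 50.6, 52.4 and 51.4 CPM with Sora, with no overlap. Its log2 fold change was 0.52 ± 0.05 SE (adjusted p = 1.31e-08, edgeR), a 1.43-fold higher level. The T cell receptor brakes Dusp14 and Dusp22 therefore had opposite signs in the same libraries.

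Dusp12, a zinc-binding phosphatase, fell from 8.20, 8.22 and 7.86 CPM in the controls to 6.10, 6.34 and 6.26 CPM with Sora, with a log2 fold change of -0.38 ± 0.11 SE (adjusted p = 0.00487, edgeR). Dusp11, which removes phosphates from RNA 5′ ends and not from MAP kinases, was measured at 227, 233 and 243 CPM and at 243, 249 and 255 CPM, with a log2 fold change of 0.09 ± 0.03 SE (adjusted p = 0.021, edgeR). Its direction depended on scaling. With library totals the log2 fold change was -0.03, with upper quartile scaling it was 0.05 (edgeR adjusted p = 0.18), its mean FPKM was 37.4 in the controls and 36.7 with Sora, and the call was lost without ctrl-Treg library 1, ctrl-Treg library 2 or Sora-Treg library 3 (edgeR adjusted p = 0.117, 0.0519 and 0.107).

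Dusp15 had 27, 19 and 22 counts in the controls and 1, 11 and 6 counts with Sora, with a log2 fold change of -1.76 ± 0.53 SE (adjusted p = 0.00688, edgeR). It was called lower at under 1 CPM, and the log2 fold change was -2.55 without Sora-Treg library 2 and -1.30 without Sora-Treg library 1. Dusp3, a small phosphatase of ERK and JNK, was measured at 3.38, 3.27 and 4.54 CPM and at 4.71, 5.18 and 4.35 CPM, with a log2 fold change of 0.35 ± 0.16 SE (adjusted p = 0.068, edgeR). It was called higher without ctrl-Treg library 3 (log2 fold change 0.51, edgeR adjusted p = 0.0173), but without ctrl-Treg libraries 1 and 2 the log2 fold change was 0.06 (edgeR adjusted p = 0.843).

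The remaining tested members of the class were not called. Dusp28 was measured at 3.30, 3.54 and 4.01 CPM in the controls and at 3.10, 3.11 and 2.36 CPM with Sora, so that the groups did not overlap, with a log2 fold change of -0.34 ± 0.18 SE (adjusted p = 0.11, edgeR). Dusp19, which scaffolds the JNK pathway, was measured at 10.4, 11.4 and 10.02 CPM and at 11.04, 11.5 and 10.9 CPM (log2 fold change 0.07 ± 0.09, SE, edgeR adjusted p = 0.547, and -0.05 with library totals). It overlaps Nup35 on the same strand, which was read at 17.8 CPM in the controls and 13.2 CPM with Sora. Dusp23 was measured at 2.03, 1.68 and 2.79 CPM and at 1.81, 1.94 and 2.53 CPM (log2 fold change -0.04 ± 0.24, SE, edgeR adjusted p = 0.911, and -0.41 without ctrl-Treg libraries 1 and 2, with an adjusted p of 0.322).

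The 4 untested genes were close to the floor. With single libraries left out, up to 3 members were called higher beyond 2-fold, where all libraries together gave 2. The added member was among these 4 genes. Dusp18 had 5, 2 and 3 counts in the controls and 9, 14 and 14 counts with Sora, which did not overlap, and Dusp13 had 7, 5 and 2 counts and 11, 6 and 5 counts. Dusp13 overlaps Samd8 on the opposite strand, which was read far higher (32.1 CPM with Sora). Dusp27, a muscle gene, had 1 count in each ctrl-Treg library and in Sora-Treg library 1 and 0 in the other Sora-Treg libraries. Dusp21 had 1 count in Sora-Treg library 1 and 0 elsewhere. Levels of these genes at or under 3 counts were not detectable at this depth.

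When ctrl-Treg libraries 1 and 2, which had the highest sums of myeloid markers, were left out, 27 members could be tested, of which 5 were called higher (18.5%) and 6 lower (22.2%). In that fit 22.1% of all tested genes were called higher and 20.8% lower, so that the share of lower members was near that of all genes. The 6 were Spred1, Spry1, Spry4, Dusp6, Dusp7 and Dusp14, and the log2 fold changes of Spred2, Spred3 and Dusp4 were 1.25, 1.80 and 0.73. Spry4 was at -2.22. Dusp8, Dusp12 and Dusp15 were no longer called (edgeR adjusted p = 0.09, 0.125 and 0.086), nor were Dusp10, Dusp11 and Dusp16 (0.228, 0.567 and 0.362), with 1 control library left.

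Which members were most abundant was compared per length, as FPKM (counts relative to the library total and the gene length). Dusp4, Dusp2, Dusp5 and Dusp11 were the 4 highest members by FPKM in both groups. Dusp4 alone held 22.4 ± 0.12% of the summed FPKM of the members in the controls and 32.2 ± 0.28% with Sora (SD, n = 3), and its mean FPKM was 86.8 and 129.7. Dusp1 was next by deposited FPKM, at a mean of 28.7 in the controls and 26.9 with Sora, and Spry1 was at 24.6 and 11.97.

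The order below these depended on the length used. Every deposited FPKM value equals the count divided by the library total and by 1 length per gene, and the length so implied was compared with the exons annotated for the gene in GENCODE M21. For Spred2 the implied length was 37937 bases, against 4619 bases of annotated exons, a ratio of 8.21. For Spred1 and Spred3 the ratio was 1.04 and 0.96. Over the members with the largest departures it was 2.76 for Dusp10, 2.18 for Spry4 and 2.13 for Spry2, and, on the other side, 0.49 for Dusp19 and 0.51 for Dusp12.

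Spred2 therefore ranked 19 among the members in the controls and 13 with Sora by the deposited FPKM (1.48 and 3.26), and 7 and 5 when the annotated exon length was used (12.2 and 26.8). Spred2 was above Spred1 and Spred3 on the annotated length, and below both in the controls on the deposited FPKM. The choice does not touch a fold change or a test, since the length is the same in all libraries. The counts were not redone, so a counted stretch longer than the annotated exons would make the level on the annotated length too high. Whether the Spred2 counts hold reads outside its annotated exons, which would bear on its fold change too, was not tested.

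**Figure D4:**
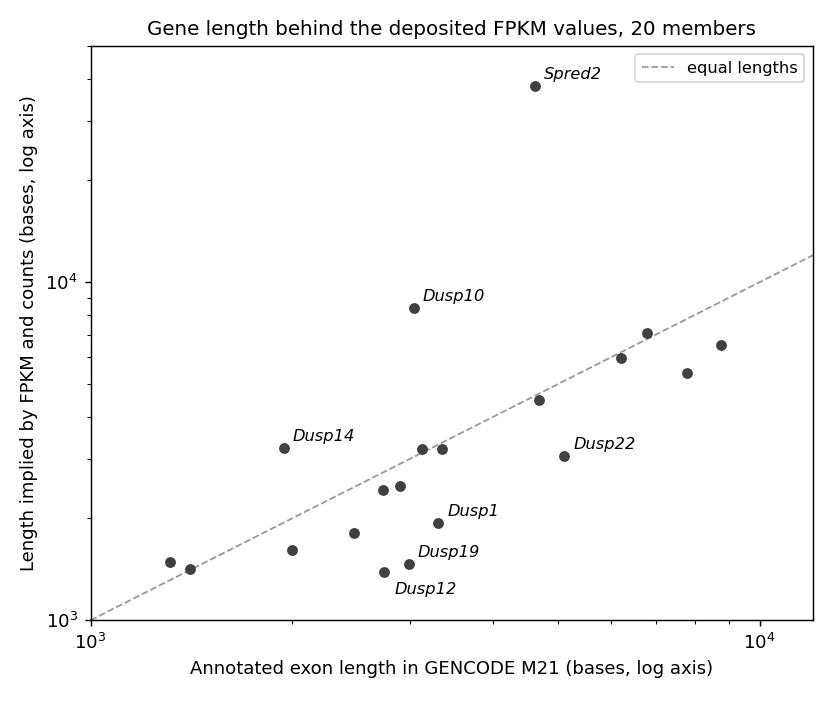
Length per gene implied by the deposited FPKM values against the exon length in GENCODE M21, both in bases on log axes, for the 20 members with a mean FPKM of at least 1 in either group, with 1 point per gene and the line of equality. Spred2 lies farthest above the line at 37937 against 4619 bases, and Spred1 and Spred3 lie close to it.

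For comparison, 4 lists of related genes were read from the same fit, in which 29.7% of all tested genes were called higher and 29.9% lower. Of the ERK cascade core (22 genes, 21 tested), 9 were higher, 3 were lower and 9 were not called, with a median log2 fold change of 0.12. With library totals, where 21.3% of all tested genes were called higher and 41.7% lower, the split was 8 higher and 7 lower. The RAS family gene Rras was measured at 11.8 ± 0.335 CPM in the controls and 23.96 ± 3.05 CPM with Sora (SD, n = 3, log2 fold change 1.02, edgeR adjusted p = 8.08e-10), the MEK gene Map2k1 at 203 and 244 CPM (0.27, adjusted p = 7.88e-08) and the ERK gene Mapk3 at 63.3 and 82.8 CPM (0.39, adjusted p = 2.35e-08). The RAS exchange factors Sos2 (0.42) and Rasgrp1 (0.26) were higher as well. These 5 genes were named for the smallest adjusted p in the list, a choice that favors groups without overlap. Their groups did not overlap, and 31.8% of all tested genes were higher without overlap.

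Of the JNK, p38 and ERK5 modules (19 genes, 18 tested), 8 were higher, 7 lower and 3 not called, with a median of 0.01. With library totals it was 3 higher and 8 lower of 18, beside the shares of all genes in that fit (21.3% and 41.7%). The genes that fell included Mapk14, which encodes p38 alpha, at 98.7 CPM in the controls and 69.9 CPM with Sora (log2 fold change -0.50, edgeR adjusted p = 1.55e-09), and its activating kinases Map2k3 (-0.50) and Map2k6 (-0.67). Map3k1, an upstream kinase of the JNK module, rose from 107 to 205 CPM (0.94, adjusted p = 1.14e-16), and Mapkapk2, a p38 substrate kinase, rose from 340 to 438 CPM (0.36, adjusted p = 5.81e-11).

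Of the other brakes on RAS and MAP kinases (22 genes, 21 tested), 8 were higher, 9 lower and 4 not called, with a median of 0.02. The RAS GTPase-activating gene Rasa3 fell from 169 to 104 CPM (log2 fold change -0.70, edgeR adjusted p = 1.56e-14). The ubiquitin ligase gene Cblb rose from 81.8 to 164 CPM (1.001, adjusted p = 2.18e-15), and the receptor kinase inhibitor gene Errfi1 (0.99), the adaptor gene Dok2 (0.74) and the diacylglycerol kinase gene Dgka (0.32) rose too.

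Of MEK and ERK output genes other than the members (24 genes, 23 tested), 10 were higher, 11 lower and 2 not called, with a median of -0.03. Beyond 2-fold, 2 were higher, where 6.3% of all tested genes were, and 7 were lower, where 4.97% were. The early growth response genes Egr2 and Egr3 fell from 49.6 to 17.1 CPM (log2 fold change -1.53, edgeR adjusted p = 5.92e-16) and from 81.3 to 22.2 CPM (-1.87, adjusted p = 4.61e-19), and the orphan receptor gene Nr4a1 fell from 323 to 131 CPM (-1.31, adjusted p = 1.1e-19). In the other direction, the cytokine gene Lif rose from 373 to 805 CPM (1.11, adjusted p = 4.57e-20) and the membrane protein gene Emp1 from 18.6 to 56.5 CPM (1.599, adjusted p = 9.63e-17). Dusp6, Spry1 and Spry4, which are also used as outputs of ERK, fell, whereas Dusp4 rose and Dusp5 was not called. By immunoblot, the study reported more phosphorylated ERK and MEK in CD4 T cells cultured toward Treg cells with Sora than without it. That was protein, after a shorter culture than the study used for Foxp3 staining, in cells not described as sorted for GFP. Its relation to these RNA levels was not tested. In the study, U0126, used there against ERK signaling, did not prevent Sora from promoting Treg differentiation.

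**Figure D5:**
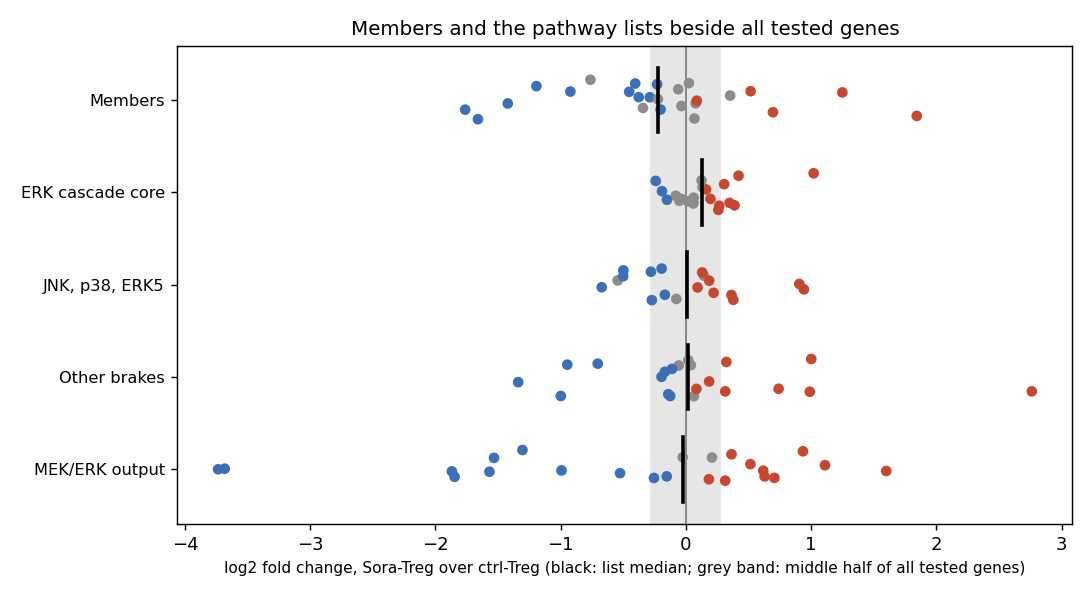
Log2 fold change, Sora-Treg over ctrl-Treg, of each tested gene in the members and in the 4 related lists, with 1 point per gene and a bar at the median. The medians are -0.22 for the members and 0.12, 0.01, 0.02 and -0.03 for the ERK cascade core, the JNK, p38 and ERK5 modules, the other brakes and the output genes.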

How the data were processed

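The authors deposited a count table, with raw read counts per gene symbol for 6 libraries, and an FPKM table, in which each value was the authors' count divided by the library total and by a single length per gene (largest relative difference 1.64e-06). The submitters' processing notes name fastp, HISAT2, HTSeq, GRCm39, R 3.2.0 and DESeq2, whereas the methods of the study name Bowtie2 and GRCm38. Which of them made the tables was not settled, and annotation release and strand setting are not given in the sources used here. Libraries were grouped by title. Totals were 30727686 to 37717324 counts, and each pair within a group differed by more than sampling noise (chi-square per degree of freedom 3.45 to 6.17).

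Counts were tested with the two-sided quasi-likelihood F test of edgeR 4.0.16 in R 4.3.3, with TMM scaling, filterByExpr, no covariate and Benjamini-Hochberg adjustment over 13463 genes. The procedure was also run on simulated data with a single dispersion for all genes. Few genes were changed there, unlike in these data, and none of low count, so members with few counts are not covered. Standard errors are those implied by the F statistic. An exact permutation test on 3 and 3 libraries cannot reach a p of 0.05, so single values rest on this fit. Members with a mean FPKM of at least 1 in either group were named in full, as were at most 5 such genes of each related list, by adjusted p. Members, classes and lists were chosen with earlier results of these data known. Alternatives were RLE, upper quartile and no scaling, 2 other filters, DESeq2 1.42.0, a robust fit, a replicate block, and leaving out each library, or ctrl-Treg libraries 1 and 2 together. The exon length was an alternative chosen after seeing the data. Exon lengths, overlaps and gene positions are from GENCODE M21 (GRCm38), and promoters from RefSeq (GRCm38.p6), with entries for 23 of 29 members. Motifs were searched on both strands.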

Additional observations from a re-analysis of the deposited data

How the results depend on the processing

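Of the 16 called members, 10 kept direction and call in every alternative that gave them a value (15, or 14 for Spry4, which did not pass the CPM filter), namely Spred1, Spred2, Spred3, Spry1, Spry4, Dusp4, Dusp6, Dusp7, Dusp14 and Dusp22. Dusp10, Dusp11 and Dusp16 lost the call with single libraries left out, Dusp10 also in DESeq2, and Dusp11 also with upper quartile scaling (edgeR adjusted p = 0.18), library totals and a filter of 1 count in any library (0.0684). Dusp8, Dusp12 and Dusp15 lost it with ctrl-Treg libraries 1 and 2 left out (edgeR adjusted p = 0.09, 0.125 and 0.086), where the 1 control left is assumed to vary like the other libraries. Members called lower were then 6 of 27, or 22.2% (20.8% of all genes), and 2 beyond 2-fold (3.68% of all genes). They were also 2 beyond 2-fold with a CPM of at least 1 in 3 libraries, a filter that keeps fewer members.

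The median of the tested members was -0.26 with upper quartile scaling, -0.34 with library totals, -0.0578 with that CPM filter, -0.17 without ctrl-Treg libraries 1 and 2, and -0.26 to -0.19 with each library left out in turn. Library totals moved the median of all genes by -0.12, with 7 ERK core genes lower and 3 JNK, p38 and ERK5 genes higher. Direction turned for Dusp5 (-0.0377), Dusp11 (-0.0288), Dusp19 (-0.0477) and Dusp1 (-0.0914) with library totals, and for Dusp1 with upper quartile scaling (-0.0138). Without ctrl-Treg libraries 1 and 2 it turned for Dusp1 (-0.0483), Dusp2 (0.0600) and Dusp9 (1.19). With 1 library left out it turned for Dusp9 (0.16, in a range of -0.60 to 0.16) and Dusp23 (0.02 to 0.18, of which 0.06 without Sora-Treg library 1). The cause was not tested.

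Dusp2 was called lower with upper quartile scaling (edgeR adjusted p = 0.0486) and library totals (8.51e-04), and Dusp28 with library totals (0.0323). A replicate block changed 0 member calls, with 5 higher and 11 lower and a median of -0.20. Same-numbered libraries had deviations correlated at -0.04, 0.06 and 0.03, and libraries of different number at -0.10 to 0.07. These values show no pairing by number but cannot exclude a shared source. Members under 2 CPM, Dusp8, Dusp9, Dusp15, Spry2 and Spry4, have the widest errors.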
